A study of Cucumis sativus with 33 samples.

Results

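The last step of flower opening, from the yellow bud to the open corolla, was compared between normal and super ovaries of cucumber (Cucumis sativus, inbred line 6457). For every gene the change from day 8 (S8) to day 9 (S9) in super ovaries was set against the change from day 4 (N4) to day 5 (N5) in normal ovaries, days being counted from the labeling of the visible ovary. The difference of these changes, the interaction, was tested with 3 RNA-seq libraries in each of the 4 groups, 12 of the 33 libraries in the series. N4 and S8 were yellow buds, and N5 and S9 were the groups at flowering. Each library came from 5 corollas ground together, so the values describe pools and not single flowers. All 4 groups came from bagged, unpollinated female flowers at the top node of greenhouse plants. Super ovaries formed where fertilizer and water were ample and a single fruit, the first near the growing point, was left on the plant. Normal ovaries formed where both were deficient and 1 or 2 fruits had been set elsewhere, so nutrition, fruit load and days since labeling differ together between the courses and cannot be told apart. S7 (day 7, also a yellow bud) and N3 (day 3, green yellow bud) preceded these steps. Their means took no part in the interaction itself, while their libraries entered the variance of each gene in the fit.

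A petal opens when its cells expand, which takes water uptake, a supply of sugars and loosening of the cell wall, and hormones such as ethylene, auxin and gibberellin act on its timing. During this short period a petal passes from growth to display, and genes needed in the bud are commonly exchanged for others that serve the open flower. The female flower of cucumber sits on top of its ovary, so that corolla and young fruit share a supply line. An interaction asks of each gene whether this exchange is made to the same extent in both courses. A negative interaction means that the gene rose less, or fell more, in super than in normal ovaries, and a positive one means the reverse.

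The deposited values are RPM, the reads of a gene scaled to a fixed library total. Library totals recovered from the steps between low values were 16980029 to 23049522 reads in 11 of the 12 libraries. In these, 1 read was worth 0.0434 to 0.0589 RPM. N5 replicate 2 did not pass the recovery test, and its estimates were 24643175 reads and 0.0406 RPM. Replicate libraries correlated across genes at 0.992 to 0.996. S7 replicate 3, outside the 12, stood apart from S7 replicates 1 and 2, at 0.965 and 0.977, and counts that use S7 are given with and without it. Of 23248 genes, 18905 averaged 1 RPM or more in some group and entered the test. The table holds gene identifiers without names or descriptions. None of them was matched to a gene name (0 of 23248), so gene functions are not given, the corolla label was not checked against marker genes, and 4 genes are followed individually.

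The last step differed between the courses in 3224 genes, 17.1% of those tested. Calls needed a limma p under 0.05 after Benjamini-Hochberg adjustment over all genes tested, and a difference of at least 2-fold. The interaction was more negative in super ovaries for 2178 genes (11.5% of those tested) and more positive for 1046 (5.53%), so that 67.6% of the calls were negative. Among them, 614 and 169 genes differed by 4-fold or more. The median interaction was -1.55 on the log2(RPM + 1) scale among the negative calls and 1.36 among the positive ones, against -0.06 over all genes tested. In whole corollas a lower level can mean less RNA per cell or fewer cells of a type that holds it, and these cannot be told apart.

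The balance between the directions rested on the scaling of the libraries. When each library was divided by the median ratio of its genes to their mean level, 1834 genes were more negative and 1592 more positive, and the negative share came down from 67.6% to 53.5%. The median interaction over all genes then moved from -0.06 to 0.11. All 1046 positive calls were kept under this scaling, and 1815 of the 2178 negative ones (83.3%). N4 was the group with the highest share of its reads in few genes. The 10 genes with the most reads took 6.64% to 7.19% of an N4 library, against 3.72% to 4.04% in N5, and their part in the low N4 levels of other genes was not tested beyond this rescaling.

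**Figure D1:**
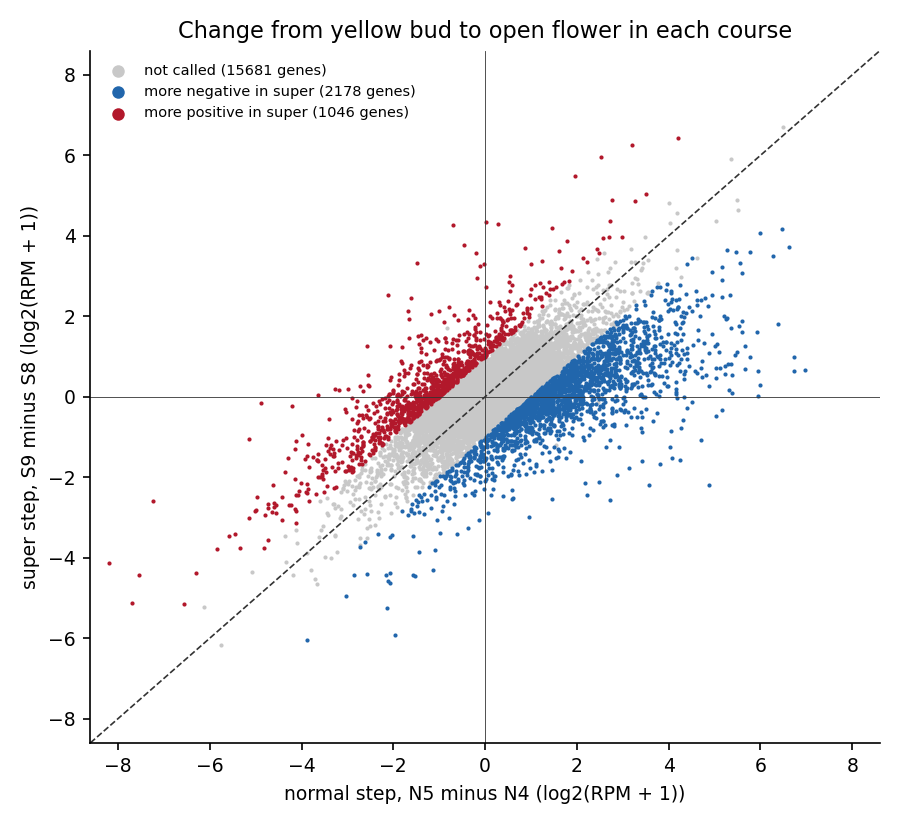
Each point is 1 of the 18905 genes tested, with its log2(RPM + 1) change from N4 to N5 on the horizontal axis and from S8 to S9 on the vertical axis. Colour marks the genes called in the interaction, and the dashed line marks equal change. The 2178 blue genes lie under the line and the 1046 red genes above it, and the cloud is flatter than the line.

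The step was wider in the normal course. In N5 against N4, 3188 genes rose (16.9% of those tested) and 1611 fell (8.52%). In S9 against S8, 1755 rose (9.28%) and 1191 fell (6.3%). The excess of rises in the normal step rested on the scaling, since rescaling gave 2397 rises and 2406 falls. In the super step the excess narrowed, to 1535 rises and 1387 falls. The middle 50% of genes spanned 0.98 log2 units of change in the normal step and 0.77 in the super step. These steps have no library in common, although each gene had a common variance in the fit. Across the 18905 genes they correlated with a Pearson r of 0.63, a description, since genes are not independent replicates.

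Genes of the super step mostly moved alike in the normal step, while genes of the normal step often moved little in the super step. Of the 1755 genes that rose in super ovaries, 1134 (64.6%) rose in normal ones, and these are 35.6% of the 3188 that rose in normal ovaries. The 1755 genes had a median change of 1.34 in the super step that chose them and 1.31 in the normal step. The 3188 genes had a median change of 1.57 in the normal step that chose them and 0.74 in the super step. For falling genes, 677 fell in both steps, 56.8% of the 1191 of the super step and 42.0% of the 1611 of the normal step. The 1191 genes changed by a median of -1.50 in the super step and -1.24 in the normal step, and the 1611 genes by -1.49 in the normal and -0.79 in the super step. After rescaling, genes that rose in both steps were 55.2% of the super and 35.3% of the normal rises. Those that fell in both were 65.4% of the super and 37.7% of the normal falls. A step that chooses its own genes is overstated in them, and this applies to both courses.

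The called genes were then sorted by what each step did. The sorting uses the libraries of the interaction and describes its calls without supporting them.

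The commonest negative pattern was a rise in normal ovaries with none called in super ovaries. It held 1182 genes, 54.3% of the 2178. Their median level went from 2.73 in N4 to 5.05 in N5 on the log2(RPM + 1) scale, and from 4.53 in S8 to 4.71 in S9. The courses thus ended close together and started apart. In N3, before the step, the median of these genes was 4.19. N4 had the lowest mean of the 4 normal groups for 879 of them (74.4%, against 44.5% of all genes tested). S8 was the lowest of the 7 super groups for 10.1%, against 34.7% of all genes tested. These shares are partly set by the sorting, which places N4 under N5. After rescaling the pattern held 988 genes, and N4 was the lowest normal group for 57.5% of them, against 26.0% of all genes tested.

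These 1182 genes were also followed by the reads they took. They held 2.92%, 2.68% and 3.01% of the reads in the 3 N4 libraries and 12.8%, 12.2% and 12.2% in those of N5. In super ovaries they held 9.19%, 10.8% and 9.41% in S8 and 11.9%, 11.5% and 11.1% in S9. The N4 libraries lay far under the other 9, and every S8 library lay under every S9 library by a small margin. Before the step the shares were 6.6% ± 0.135 (SD, n = 3) in N3 and 6.22% ± 1.32 in S7. The gene of this pattern with the most reads stood at 1662 ± 131 RPM in N4 and 5892 ± 395 in N5, and at 5489 ± 457 in S8 and 6570 ± 782 in S9.

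**Figure D2:**
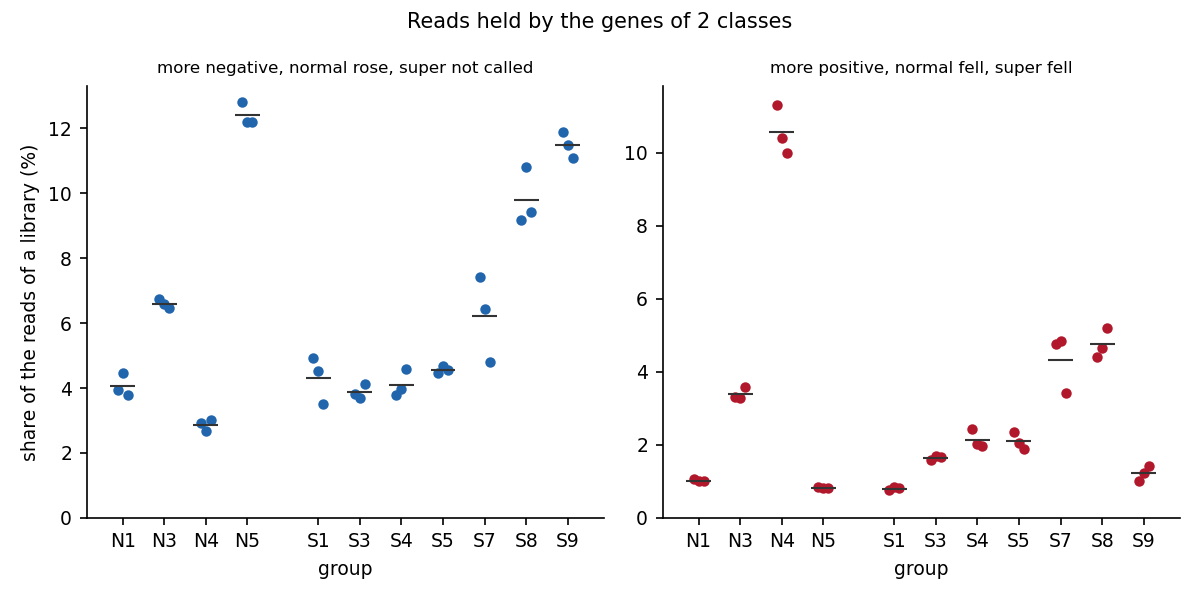
Share of the reads of each library (%) held by the 1182 genes that rose only in the normal step by call (left) and by the 152 positive calls that fell in both steps (right), in the 11 groups of the series. Points are libraries and bars are means of 3. On the left N4 is low at 2.87% and S8 is not, at 9.81%, and on the right N4 reaches 10.6% and S8 4.75%.

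A further 319 negative calls rose in both steps, and rose less in super ovaries. Their median went from 2.29 in N4 to 5.91 in N5 and from 4.01 in S8 to 5.60 in S9, so here too the flowering levels were near each other and the bud levels were not. Together these genes held 0.386% ± 0.0285 of the reads in N4 and 4% ± 0.203 in N5, and 1.35% ± 0.118 in S8 and 3.79% ± 0.118 in S9. The remaining negative calls ran otherwise. In 247 genes the super step fell and the normal step was not called. Their medians of 4.03 in N4 and 4.07 in N5 were level, while super ovaries went from 4.82 in S8 to 3.15 in S9. A group of 49 genes fell in both steps and fell further in super ovaries, from 2.03% ± 0.262 of the reads in S8 to 0.173% ± 0.0248 in S9, against 1.77% ± 0.354 in N4 and 0.554% ± 0.0739 in N5. The gene with the most reads among the 49 went from 7921 ± 838 RPM in S8 to 367 ± 71 in S9 and from 6971 ± 1225 in N4 to 2374 ± 567 in N5 (interaction -2.87, SE 0.30, adjusted p 1.8e-08 by limma). In 336 negative calls neither step passed the limits by itself.

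Among the 1046 positive calls, 446 (42.6%) fell in the normal step and were not called in the super step. Their median went from 4.52 in N4 to 2.85 in N5, and from 3.40 in S8 to 3.24 in S9. N4 had the highest normal mean for 271 of them (60.8%, against 14.9% of all genes tested). The sorting partly sets this share, since it places N4 above N5. In another 152 genes (14.5%) both steps fell, and the fall was smaller in super ovaries. These 152 genes held much of the N4 library. They took 11.3%, 10.4% and 9.99% of the reads in the N4 libraries and 0.858%, 0.821% and 0.804% in those of N5. In S8 they took 4.41%, 4.65% and 5.2%, and in S9 0.997%, 1.24% and 1.42%. The S8 libraries lay under all 3 of N4, and the S9 libraries above all 3 of N5. The gene with the most reads among them stood at 12535 ± 582 RPM in N4, 1850 ± 148 in N5, 5563 ± 588 in S8 and 2155 ± 255 in S9 (interaction 1.39, SE 0.18, adjusted p 3.4e-07 by limma). After rescaling, the pattern of a fall called only in the normal step held 775 genes and that of a fall in both held 207. N4 was then the highest normal group for 68.8% of the 775, against 29.9% of all genes tested.

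Genes with more rise in super ovaries were fewer. In 186 positive calls the super step rose and the normal step was not called, with medians of 2.55 in S8 and 4.50 in S9 against 3.23 in N4 and 3.51 in N5. A set of 39 genes rose in both steps and rose more in super ovaries. It held 0.0536% ± 0.00145 of the reads in S8 and 0.654% ± 0.152 in S9, against 0.0666% ± 0.00299 in N4 and 0.233% ± 0.0166 in N5. Its gene with the most reads stood at 46.8 ± 3.36 RPM in S8 and 882 ± 187 in S9, and at 118 ± 10.6 in N4 and 327 ± 38.8 in N5 (interaction 2.73, SE 0.16, adjusted p 5.6e-13 by limma). Of the 39 genes, 28 were called higher in S9 than in N5, against 2.93% of all genes tested, and the sorting favours such a difference. In 200 positive calls neither step passed the limits by itself, and there were 313 such genes after rescaling and 343 by edgeR.

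**Figure D3:**
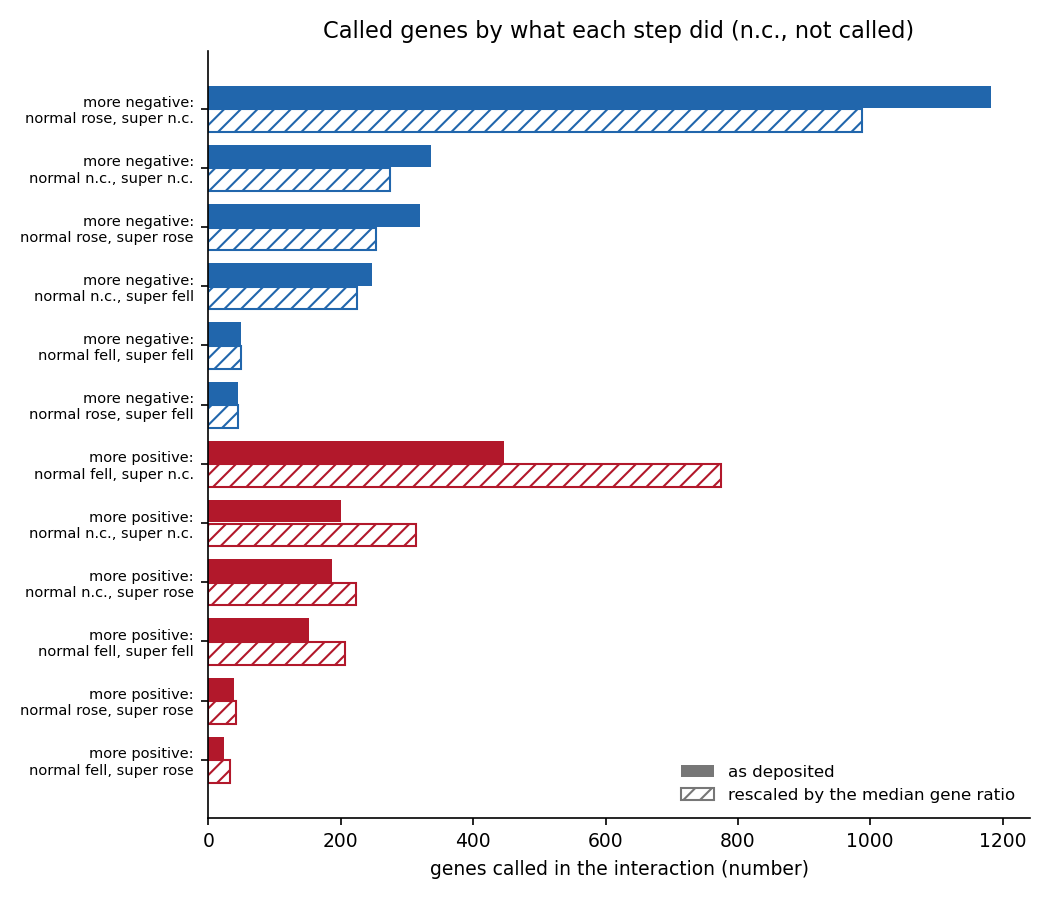
Number of genes called in the interaction, sorted by what was called in each step (n.c., not called). Filled bars are the values as deposited and hatched bars those after rescaling by the median gene ratio. The longest bar, 1182 genes that rose in the normal step only, comes to 988 after rescaling, and the 446 genes that fell in the normal step only come to 775.

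**Figure D4:**
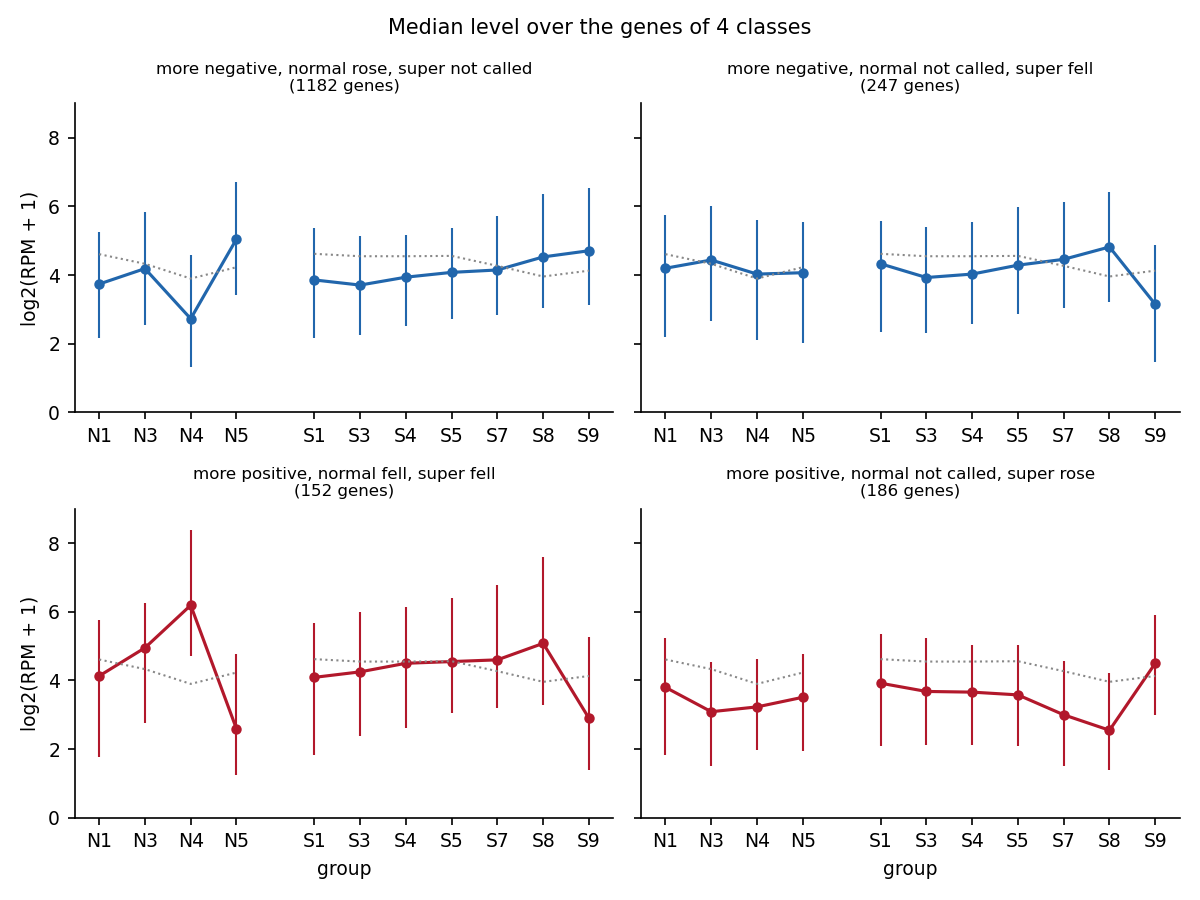
Median log2(RPM + 1) over the genes of 4 patterns in the 11 groups, with bars from the lower to the upper quartile and a dotted line for all genes tested. The upper left panel dips at N4 (2.73) with no dip at S8 (4.53), and the lower left peaks at N4 (6.19) and lower at S8 (5.08). In the right panels the courses differ at the bud and, the other way, at flowering. The upper right has 4.03 in N4, 4.82 in S8, 4.07 in N5 and 3.15 in S9. The lower right has 3.23 in N4, 2.55 in S8, 3.51 in N5 and 4.50 in S9.

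The steps went opposite ways in 68 genes. Of these, 45 rose in the normal step and fell in the super step, and 23 fell in the normal step and rose in the super step. The 45 genes had medians of 3.11 in N4 and 5.13 in N5 against 5.30 in S8 and 3.79 in S9. The 23 genes had medians of 4.68 in N4 and 3.14 in N5 against 3.17 in S8 and 5.08 in S9. Against the 1134 and 677 genes that moved the same way in both steps, opposite calls were few. They made up 1.4% of the genes that rose in the normal step, while 6.3% of all genes tested fell in the super step. They made up 1.4% of those that fell in the normal step, while 9.28% of all genes tested rose in the super step. After rescaling there were 45 and 32 such genes.

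The largest negative interaction among the genes eligible for naming belonged to Csa7G046660. It stood at 2.27, 2.62 and 2.63 RPM in the N4 libraries and at 91.23, 114.88 and 102.28 RPM in those of N5. In super ovaries it stood at 271.97, 331.55 and 286.4 RPM in S8 and at 53.18, 65.42 and 75.26 RPM in S9. No library of one group overlapped another, and the order from the lowest was N4, S9, N5 and S8. Its log2 change was 4.88 (SE 0.60, adjusted p 4.4e-08) in the normal step and -2.19 (SE 0.60, adjusted p 0.0024) in the super step, an interaction of -7.07 (SE 0.85, adjusted p 1.4e-07, all by limma). Part of this error came from S7, where the 3 libraries stood at 291.6, 121.16 and 8.13 RPM. Without S7 replicate 3, the low library, the SE of the interaction was 0.27. In N3 the gene was at 24.4 ± 2.01 RPM (SD, n = 3), so that N4 was the lowest of all 11 groups and S8 the highest.

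Csa7G322060 followed the same order of N4 and S8. Its levels were 1.08, 1.41 and 1.47 RPM in N4 and 41.25, 42.61 and 44.27 RPM in N5. In S8 they were 118.15, 226.83 and 162.98 RPM, and in S9 44.23, 45.42 and 78.43 RPM. The flowering libraries overlapped, with 1 of S9 under the highest of N5, and the bud libraries lay far apart. The interaction was -5.82 (SE 0.60, adjusted p 1.4e-08 by limma), made up of a change of 4.24 in the normal step and -1.58 in the super step. The difference at flowering was 0.33 (SE 0.43, adjusted p 0.56) and was not called. In S7 this gene also varied widely, from 13.6 RPM in replicate 3 to 145.29.

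Csa6G152340 had the largest positive interaction among the eligible genes. Its levels were 13.86, 12.85 and 17.94 RPM in N4 and 7.81, 6.41 and 12.52 RPM in N5. They were 0.87, 0.59 and 1.06 RPM in S8 and 37.99, 36.05 and 29.22 RPM in S9. The S8 libraries were the lowest and the S9 libraries the highest of the 12, with the normal groups between them. The super step rose by 4.27 (SE 0.20, adjusted p 4.9e-16) and the normal step changed by -0.71 (SE 0.20, adjusted p 0.0022), under the 2-fold limit, giving an interaction of 4.98 (SE 0.28, adjusted p 4.4e-13, all by limma). In the flower it was higher in S9 than in N5 by 1.88 (SE 0.20, adjusted p 3.7e-08).

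Csa6G077390 had the largest positive interaction of those eligible genes that fell in the normal step. It stood at 3.45, 4.18 and 3.6 RPM in N4 and 0.6, 0.85 and 0.64 RPM in N5. In super ovaries it went from 0.75, 0.35 and 0.48 RPM in S8 to 9.6, 14.27 and 20.79 RPM in S9. S8 and N5 overlapped at the low end, and S9 exceeded every other library of the gene in the series. The interaction was 4.81 (SE 0.25, adjusted p 1.1e-13 by limma), from a change of -1.48 in the normal step and 3.33 in the super step. With levels under 1 RPM at the low end, the log2(RPM + 1) scale understates these changes, and edgeR on recovered reads put the interaction at 7.80 (adjusted p 6.7e-11).

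**Figure D5:**
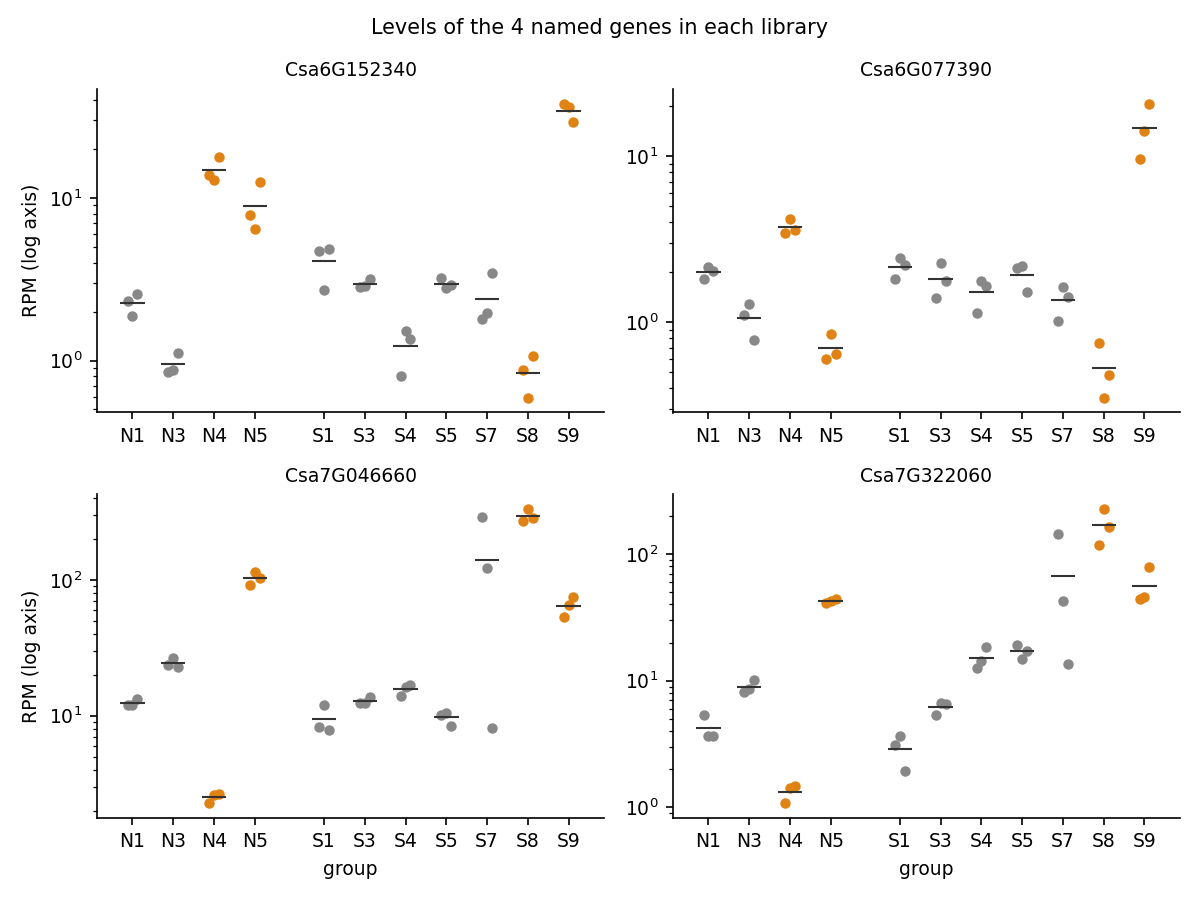
RPM of the 4 named genes in each library (log axis), with the 12 libraries of the tested groups in orange, the other 21 in grey, and bars at the mean of 3. The upper genes are lowest in S8 and highest in S9, at 34.4 and 14.9 RPM, and the lower genes are lowest in N4, at 2.51 and 1.32 RPM, and highest in S8.

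By construction the interaction is the difference between the courses at flowering minus that at the yellow bud. Between the yellow buds, 2640 genes were called in S8 against N4 (14% of those tested, 9.51% higher and 4.45% lower in S8). These were 1798 higher and 842 lower genes, and 1625 and 1202 after rescaling. Between the flowers 979 were called in S9 against N5 (5.18%, with 2.93% higher and 2.25% lower in S9). Of the 2178 negative calls, 1375 were higher in S8 than in N4, and 280 were lower in S9 than in N5. Of the 1046 positive calls, 502 were lower in S8 than in N4, and 234 were higher in S9 than in N5. The median difference of the negative calls was 1.25 at the yellow bud and -0.37 at flowering, and that of the positive calls -0.97 and 0.43. In both sets the median difference was thus larger in the yellow buds, where the steps began, than in the flowers.

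S7 and N3, whose means do not enter the interaction, gave a view of the same genes before the step. S7 was a yellow bud and N3 a green yellow bud, so stage and ovary type differ together in this comparison. The libraries of both groups do enter the variance of each gene in the fit. A gene with a small variance is more easily called in both comparisons, so this view is not independent of the calls. In S7 against N3, 687 of all genes tested were higher (3.63%) and 962 lower (5.09%). Of the 2178 negative calls, 258 (11.8%) were higher in S7 and 174 (7.99%) lower. Of the 1046 positive calls, 89 (8.51%) were higher and 93 (8.89%) lower. Both sets thus had more calls than the background in either direction. Among the negative calls more genes were higher than lower, unlike the background, although the median differences of the negative and positive sets were only -0.01 and 0.04. Without S7 replicate 3, which stands apart in this group, the negative calls had 281 (12.9%) higher and 164 (7.53%) lower genes, against 3.91% and 6.19% of all genes tested, and the positive calls had 96 (9.18%) and 116 (11.1%). The 45 genes that rose in the normal and fell in the super step included 17 (37.8%) that were higher in S7 and 5 (11.1%) that were lower, and 20 and 5 without that library.

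The choice of the starting group bore on the count. With S7 in place of S8 as the super yellow bud, 3385 genes were more negative and 1101 more positive, and 3000 and 1137 without S7 replicate 3. Of the calls made from S8, 1434 negative and 553 positive ones were made from S7 too, and 41 turned over. After rescaling, the S7 start gave 1800 negative and 2029 positive genes, so the excess of negative calls was not kept. The steps were also taken from S7 and N3, leaving out N4 and S8. These starts are at unlike stages, a yellow bud in S7 and a green yellow bud in N3. From them, 851 genes were more negative and 1060 more positive. Of the original calls, 466 and 284 were kept and 119 turned over (126 with rescaling). Without S7 replicate 3 there were 793 negative and 1109 positive genes. The effect of Csa7G046660 shrank to -2.11 (SE 0.85, adjusted p 0.049 by limma) in that comparison, and to -2.07 (adjusted p 0.06) with rescaling as well. Without S7 replicate 3 and as deposited it was -3.57 (adjusted p 5.4e-10), with the SE at 0.29. Csa7G322060 stood at -1.86 (SE 0.60, adjusted p 0.016), and at -2.68 (SE 0.43) without that library. Of the positive genes, Csa6G152340 went from 4.98 to 1.10 (SE 0.28, adjusted p 0.0029 by limma) and Csa6G077390 from 4.81 to 2.97.

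The calls were spread over the range of levels. Ranked by the mean over all 33 libraries, 20.5% of the 5037 genes at 1 to 10 RPM were called, 16.1% of the 10404 genes at 10 to 100 RPM and 17.9% of the 2336 genes at 100 to 1000 RPM. Among the 45 genes at 1000 RPM or more, 14 were called (31.1%), 7 in each direction. Under 1 RPM, 79 of 1083 genes were called (7.29%), where the pseudocount of 1 RPM compresses changes. As deposited, negative calls exceeded positive ones in each range up to 1000 RPM, at 14.1% against 6.47% from 1 to 10 RPM and 12.3% against 5.52% from 100 to 1000 RPM.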

How the data were processed

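Titles of the corolla RNA-seq libraries gave their ovary type and day. Stages are those of the series' design text. The authors deposited 1 table of RPM values, made with TopHat and HTSeq, per the submitters' processing notes. Versions, genome build and annotation are not given in the sources at hand, nor is any batch. RPM depends on what the other genes of a library take up, so a rescaling was run as an alternative. Nothing says that the pools came from separate plants, so p-values measure the spread between pools, which may be technical.

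limma 3.58.1 in R 4.3.3 was fitted to log2(RPM + 1) with all 33 libraries in 11 group means and a variance trend. This scale understates changes of low genes. Genes averaging 1 RPM in some group were kept, tests were two-sided, and calls needed an adjusted p under 0.05 and 2-fold. The fit was tested on simulated data in which all groups had the same mean levels, apart from effects set in S9 for chosen genes. That simulation held no shift in library makeup like that of N4, so it does not bear on the scaling.

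Low values were whole multiples of 1 step per library, and 99.9% or more of values in each library lay within 0.25 of a whole read. No value was 0, so the lowest step was taken, as an assumption, for 1 read added to a gene with none. edgeR 4.0.16 was run on the recovered reads of 30 libraries. N5 replicate 2 is not among them, nor are S1 replicate 2 and S4 replicate 2. Depth limits cover counting error only. Reads of replicate libraries differed beyond sampling noise (10 pairs, with a chi-square of 7 to 18.36 for each degree of freedom), and each was counted as 1 sample.

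The deviations of same-numbered libraries correlated at 0.32, 0.20 and 0.13 between S8 and S9, each over 0.1, and at 0.01, 0.15 and 0.05 between N4 and N5, where 1 of 3 was. The numbers have no stated meaning and the reported fit has no block.

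Named genes were called genes that averaged at least 10 RPM in 1 of the 4 groups and in which every S9 minus S8 difference between libraries lay on 1 side of every N5 minus N4 difference (715 positive and 1662 negative genes). Of these, the largest interactions were taken by direction and step, 4 genes in all. The comparison, this rule and the lists were chosen with earlier results of these data known. Lists by gene function were planned and could not be formed, since 0 identifiers matched the 23999 RefSeq genes searched.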

Additional observations from a re-analysis of the deposited data

Results flagged for a closer look

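The 4 named genes and 1 count stood out because the same step had different effects in the 2 ovary types, by the test of the interaction itself. The interaction on the log2(RPM + 1) scale was 4.98 for Csa6G152340, 4.81 for Csa6G077390, -7.07 for Csa7G046660 and -5.82 for Csa7G322060. The steps were called in opposite directions in 68 genes (45 and 23). All 68 were called in the interaction, which was nearly fixed in advance, since opposite calls make it at least 4-fold in the same libraries. The 4 genes were chosen for their large interactions, so the size of these is no added support. Groups of 3 libraries are too small for a test of single outlying samples.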

How the results depend on the processing

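Of 196 counts of calls computed under alternatives, 173 stayed within 1.5 times the reported count, as did 239 of 264 counts of the sorted patterns. Both tallies include fits that each leave out a single library, which use nearly the same data and had little room to move. A pseudocount of 5 RPM gave 1925 interaction calls (584 positive, 1341 negative), 3114 in the normal step, 1794 in the super step, 1552 between yellow buds, 488 at flowering and 823 in S7 against N3. One of 0.1 RPM gave 1574 at flowering and 2485 in S7 against N3. edgeR on recovered reads called 1881 positive and 2490 negative interactions, 3973 genes between yellow buds, 1633 at flowering and 2608 in S7 against N3. Rescaling gave 1592 positive calls, and 2029 with S7 as the start. The S7 start gave 3385 negative calls as deposited and 3000 without S7 replicate 3. From N3 and S7 there were 1911 interaction calls (851 negative), 1935 (795 negative) with rescaling and 1902 (793 negative) without S7 replicate 3. This start, the S7 start with rescaling, the fits without S7 replicate 3 and the block confined to S8 and S9 were chosen after seeing the data. The cause of these changes was not tested.

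Leaving out 1 library at a time gave 3112 to 3374 interaction calls, 1010 to 1105 positive and 2091 to 2269 negative. The range was 4726 to 4913 for the normal step, 2894 to 3044 for the super step, 2562 to 2697 for yellow buds and 853 to 1150 for flowering. With the replicate number as a block, 1048 genes were positive and 2177 negative, and with a block in S8 and S9 only 1046 and 2175, where the super step had 2946 calls. Neither block moved a count of calls by over 1.5 times or changed the call of a named gene. Of the 12 libraries, 4 correlated best with their own number in the other groups. Of 116 interactions of named genes, 115 kept direction and call, and Csa7G046660 lost its call from N3 and S7 with rescaling. None was reversed.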
